A study of Mus musculus with 11 samples.

Results

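The neurotrophic factors and receptors examined here are Serpinf1, which encodes pigment epithelium-derived factor (PEDF), Bdnf, Ntrk2, Lif, Cntf, Fgf2, Igf1, Gdnf, Ntf3 and Mdk. They were chosen by gene symbol as a named group, and 7 of these 10 genes were listed in the count table of 14602 genes. Lif, Fgf2 and Gdnf were not listed in it and therefore have no count here.

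Posterior eye cups of C57BL/6J mice were freed of the neural retina, and RNA of the remaining RPE and choroid was sequenced after pre-amplification from small inputs. The laser treated mice (n = 5 libraries) were lasered with nanosecond pulses when 9 months old and collected 3 months later, when 12 months old, while the naïve control mice (n = 6 libraries) were age matched, also 12 months old, and not lasered. The methods describe 1 more laser treated sample, which was not analysed here. All mice were of the wild-type strain, and nothing in the labels states whether a library held 1 animal, so that p-values measure the spread between these libraries. The comparison asks whether the genes that sustain photoreceptors and RPE differed in level long after a single treatment.

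Neurotrophic factors are secreted proteins that keep neurons and epithelia alive by binding receptors at the cell surface. The RPE is a known source of PEDF, which protects photoreceptors and restrains vessel growth. BDNF and neurotrophin-3 (Ntf3) act through the Trk receptors, with Ntrk2 (TrkB) as the receptor for BDNF. CNTF and LIF act through receptors that share the subunit gp130 and lead to STAT3, FGF2 and IGF1 act through receptor tyrosine kinases, GDNF acts through RET, and midkine (Mdk) binds heparan sulfate proteoglycans and several cell surface receptors.

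Ntrk2 produces a full-length receptor, which carries a tyrosine kinase, and a truncated receptor, which keeps the ligand-binding part but ends soon after the membrane. The coding sequences part after a shared exon. In the annotation of GRCm38 (GENCODE M21) the truncated transcript continues into its last exon, exon 12 of 12, at chr13:58932023-58937027, whereas the full-length transcript continues into exon 13 of 18 at chr13:58985802-58985990. The end of the shared coding sequence is shown in lower case and the coding bases particular to each transcript in capitals, 5′ to 3′ on the plus strand, because the coverage given below differs between these forms. For the truncated transcript the capitals run to the stop codon, and for the full-length transcript they are its next exon.
Ntrk2 truncated transcript: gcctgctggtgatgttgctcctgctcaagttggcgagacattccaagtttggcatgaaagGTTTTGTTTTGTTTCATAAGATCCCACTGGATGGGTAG
Ntrk2 full-length transcript: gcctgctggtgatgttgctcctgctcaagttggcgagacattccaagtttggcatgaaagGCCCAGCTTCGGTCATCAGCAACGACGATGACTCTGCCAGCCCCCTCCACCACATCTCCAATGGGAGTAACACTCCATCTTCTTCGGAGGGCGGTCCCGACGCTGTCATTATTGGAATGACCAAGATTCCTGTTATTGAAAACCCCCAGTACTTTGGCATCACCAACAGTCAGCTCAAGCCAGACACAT

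Total counts ranged from 25700881 to 36766020 in naïve control and from 32094560 to 38755994 in laser treated libraries. Levels are in CPM, that is, counts relative to the TMM-scaled total of a library. The RPE marker genes (9 of 9 listed, among them Rpe65 and Rgr) summed to between 92300 and 128000 CPM in naïve control and between 74200 and 123000 CPM in laser treated libraries, so the labelled tissue was present in all of them. Photoreceptor markers (8 of 8 listed) summed to between 5280 and 20000 CPM in naïve control and between 3460 and 18000 CPM in laser treated libraries. The summed levels of inner retinal neuron (39.5 to 180 and 38.9 to 102 CPM), endothelium (93.9 to 284 and 155 to 444 CPM), macrophage (medians of 287 and 299 CPM) and pericyte and smooth muscle markers (178 to 276 and 206 to 333 CPM) overlapped between naïve control and laser treated libraries. The label R1 or R2 in the transcript files, whose meaning the sources used here do not give, split the naïve control libraries into 3 and 3 and the laser treated libraries into 2 and 3, and differences are also given within these labels. As the samples are bulk tissue, fewer cells of a type and less RNA per cell cannot be told apart.

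Of the 7 listed genes, 0 differed between groups at an adjusted p under 0.05 in edgeR's quasi-likelihood test, as was so for 0 of all 14602 genes (0%). At an unadjusted p under 0.05 the number was 0 of 7, against 15.9% of all genes, and DESeq2 called 0 of the 4 genes to which it gave an adjusted p, against 6.68% of all genes with such a value. The CPM of the groups overlapped for each of the 7 genes; they did not overlap for 2.26% of all genes. The sign of the log2 fold change was positive for 6 of 7 genes, with a median of 0.18, beside 48.5% of all genes and a median of -0.02.

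**Figure D1:**
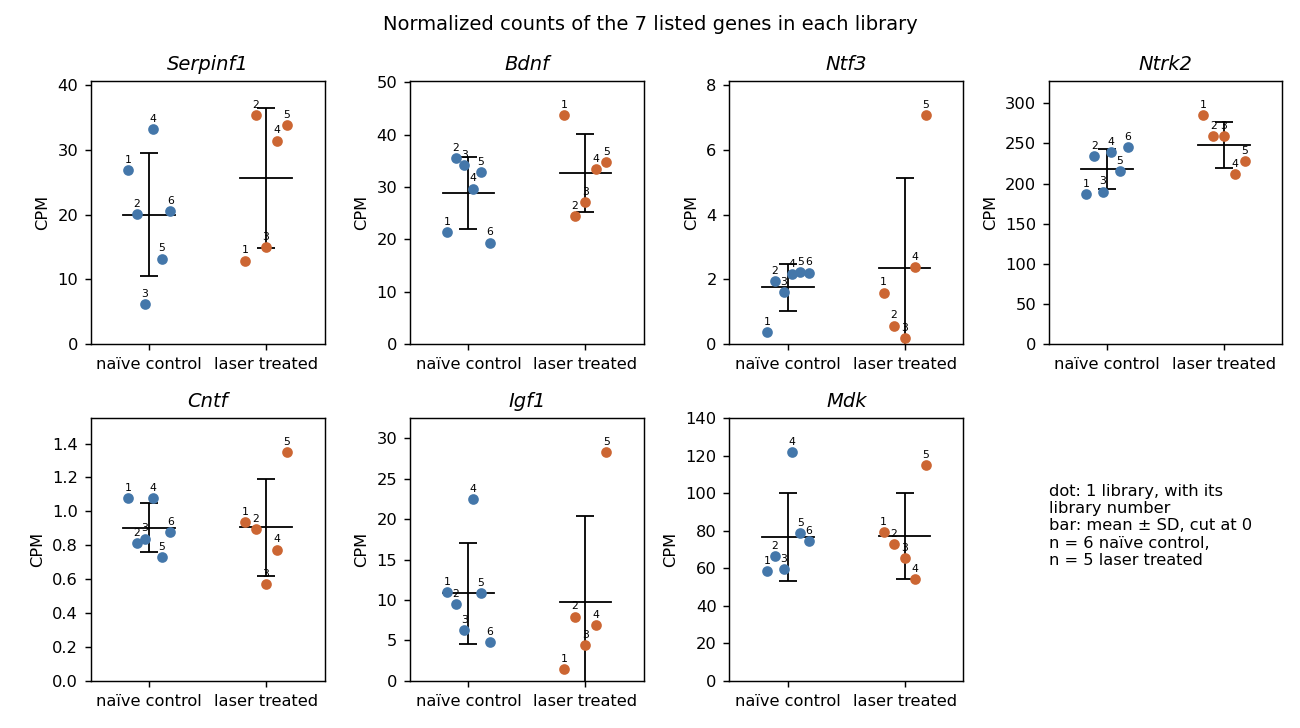
CPM (vertical axis, linear) of the 7 listed genes in the naïve control (n = 6) and laser treated (n = 5) libraries. Each dot is 1 library with its number, and bars give the mean ± SD. The groups overlap in every panel, and naïve control library 4 and laser treated library 5 are the highest of their groups for Igf1 and Mdk.

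Serpinf1, on chromosome 11 (chr11:75409769-75422701, minus strand), ranged from 6.23 to 33.2 CPM in naïve control libraries with a median of 20.3. In laser treated libraries 1 to 5 it was at 12.9, 35.3, 15.0, 31.4 and 33.8 CPM. Of the laser treated libraries 3 were close to the highest naïve control library and the other 2 lay below the naïve control median, so the groups overlapped. The mean was 20.0 ± 9.57 CPM in naïve control (SD, n = 6) against 25.7 ± 10.8 CPM in laser treated libraries (SD, n = 5), and the fitted log2 fold change was 0.36 (standard error 0.39, 95% interval -0.47 to 1.19, edgeR adjusted p = 0.729). The interval spans levels from 0.721-fold to 2.28-fold of naïve control. The log2 fold change was 0.46 within label R1 and 0.29 within label R2.

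Bdnf, on chromosome 2 (chr2:109674700-109727007, plus strand), ranged from 19.4 to 35.5 CPM in naïve control libraries with a median of 31.2. It was at 43.7, 24.5, 27.2, 33.5 and 34.7 CPM in laser treated libraries 1 to 5. Laser treated library 1 was above all naïve control libraries and the other 4 fell within their range. The means were 28.8 ± 6.81 CPM (SD, n = 6) against 32.7 ± 7.49 CPM (SD, n = 5), and the log2 fold change was 0.18 (standard error 0.21, 95% interval -0.27 to 0.63, edgeR adjusted p = 0.745). Bdnf transcripts are low in GC, at 40.9%, and removal of the dependence of the counts on GC content moved the log2 fold change to 0.52, with an unadjusted p of 0.0202 and an adjusted p of 0.674 in edgeR. That setting put 7.33% of all genes at an unadjusted p under 0.05. Within label R1 the log2 fold change was 0.19 and within label R2 it was 0.24. Of the exon bases of Bdnf, 14.4% are also exon of the antisense gene Gm45346, and without a stated strand setting reads of the 2 genes cannot be told apart there.

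Ntf3, on chromosome 6 (chr6:126101412-126166910, minus strand), encodes neurotrophin-3, which acts mainly through Ntrk3. Its counts were low, from 13 to 82 in naïve control and from 7 to 235 in laser treated libraries. In CPM it ranged from 0.368 to 2.22 in naïve control libraries with a median of 2.06, and it was at 1.59, 0.571, 0.2, 2.38 and 7.06 in laser treated libraries 1 to 5. The laser treated libraries held both the lowest and the highest value of the series. The log2 fold change was 0.43 (standard error 0.81, 95% interval -1.32 to 2.18, edgeR adjusted p = 0.866). Without laser treated library 5 it was -0.57, so its direction turned on that library. It was -0.26 within label R1 and 0.58 within label R2.

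Ntrk2, on chromosome 13 (chr13:58806569-59133970, plus strand), was the most even of the 7 genes. It ranged from 187 to 245 CPM in naïve control libraries with a median of 225. In laser treated libraries 1 to 5 it was at 285, 259, 259, 212 and 228 CPM. The 3 highest values of the series were laser treated libraries, and the other 2 lay inside the naïve control range. Means were 218 ± 25.2 CPM (SD, n = 6) against 248 ± 28.7 CPM (SD, n = 5), and the fitted log2 fold change was 0.18 (standard error 0.12, 95% interval -0.07 to 0.43, edgeR adjusted p = 0.478). Its biological coefficient of variation, the spread between libraries beyond counting error, was 0.176 and lay at the percentile 1.84 of all genes. The interval reached no further than a 1.35-fold level upward and a 0.956-fold level downward. The log2 fold change was 0.44 within label R1 and 0.02 within label R2.

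Markers of Schwann cells, which wrap nerves, were beside this the list with the smallest p of the 10 cell type lists. Their summed level (5 of 6 analysed here) ranged from 406 to 697 CPM in naïve control and from 616 to 1360 CPM in laser treated libraries, a log2 difference of 0.70 (exact two-sided permutation test over 462 splits, p = 0.0108, adjusted p = 0.108 over 10 lists). Müller glia and astrocyte markers (5 of 5 listed) ranged from 525 to 627 CPM and from 530 to 924 CPM, with a log2 difference of 0.40 (exact permutation test, p = 0.0238, adjusted p = 0.119). Neither list passed the adjustment. Over the 11 libraries log2 Ntrk2 and the log2 Schwann cell sum had Pearson's r = 0.619 (permutation p = 0.0412, adjusted p = 0.241 over 70 such relations) and Spearman's rho = 0.518 (permutation p = 0.107, adjusted p = 0.373). Without the 2 libraries farthest from the median of the sum r was 0.501, and over the 6 libraries of label R2 it was -0.23, with no test; no value was computed over the 5 libraries of label R1. Other lists had larger values with Ntrk2. For inner retinal neuron markers Pearson's r was -0.781 (permutation p = 0.00526, adjusted p = 0.092) and Spearman's rho was -0.691 (permutation p = 0.0234, adjusted p = 0.251), with r = -0.51 without the 2 farthest libraries and -0.357 within label R2. Pearson's r was 0.674 for pericyte and smooth muscle markers and -0.642 for photoreceptor markers (permutation, adjusted p = 0.206 and 0.241). Within label R2 these were -0.407 and -0.0234. For RPE markers Pearson's r was 0.562 (permutation p = 0.0692, adjusted p = 0.303) and Spearman's rho was 0.645 (permutation p = 0.037, adjusted p = 0.3). Without the 2 farthest libraries r was 0.646 for the RPE markers, and within label R2 it was 0.489. None of the 10 relations of Ntrk2 passed the adjustment. The part of these cells in the level of Ntrk2 was not tested.

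Cntf, on chromosome 19 (chr19:12763660-12765632, minus strand), had between 20 and 45 counts in a library. It ranged from 0.732 to 1.08 CPM in naïve control libraries with a median of 0.858, and was at 0.939, 0.897, 0.571, 0.774 and 1.35 CPM in laser treated libraries 1 to 5. The laser treated libraries reached below and above the naïve control range. The log2 fold change was 0.01 (standard error 0.64, 95% interval -1.37 to 1.38, edgeR adjusted p = 0.998), and it was 0.04 within label R1 and 0.03 within label R2. Of the 1073 exon bases of Cntf, 847 (78.9%) are also exon of Zfp91 on the same strand, so reads assigned to Cntf may belong to Zfp91 and its level is uncertain.

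Igf1, on chromosome 10 (chr10:87858265-87937042, plus strand), encodes the ligand of the IGF1 receptor. It ranged from 4.84 to 22.5 CPM in naïve control libraries with a median of 10.2. In laser treated libraries 1 to 5 it was at 1.42, 7.94, 4.45, 6.91 and 28.3 CPM, a 19.9-fold range over the series. Naïve control library 4 and laser treated library 5 were far above the remaining libraries, and without them the laser treated libraries lay at or below 7.94 CPM and the naïve control libraries at or below 11.0 CPM. The means were 10.8 ± 6.24 CPM (SD, n = 6) against 9.81 ± 10.7 CPM (SD, n = 5), and the fitted log2 fold change was -0.14 (standard error 0.60, 95% interval -1.44 to 1.16, edgeR adjusted p = 0.942). Without naïve control library 4 it was 0.22 and without laser treated library 5 it was -1.06. Within label R1 it was -0.91 and within label R2 it was 0.08.

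Mdk, on chromosome 2 (chr2:91929805-91932297, minus strand), encodes midkine, a heparin-binding growth factor. It ranged from 58.7 to 122 CPM in naïve control libraries with a median of 70.4. It was at 79.3, 72.9, 65.3, 54.4 and 115 CPM in laser treated libraries 1 to 5. Both groups held a single high library, again naïve control library 4 and laser treated library 5, and otherwise lay between 54.4 and 79.3 CPM. The means were 76.6 ± 23.5 CPM (SD, n = 6) against 77.4 ± 23.1 CPM (SD, n = 5), and the fitted log2 fold change was 0.02 (standard error 0.22, 95% interval -0.46 to 0.49, edgeR adjusted p = 0.983). It was 0.33 within label R1, -0.20 within label R2 and -0.19 after removal of the GC trend.

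**Figure D2:**
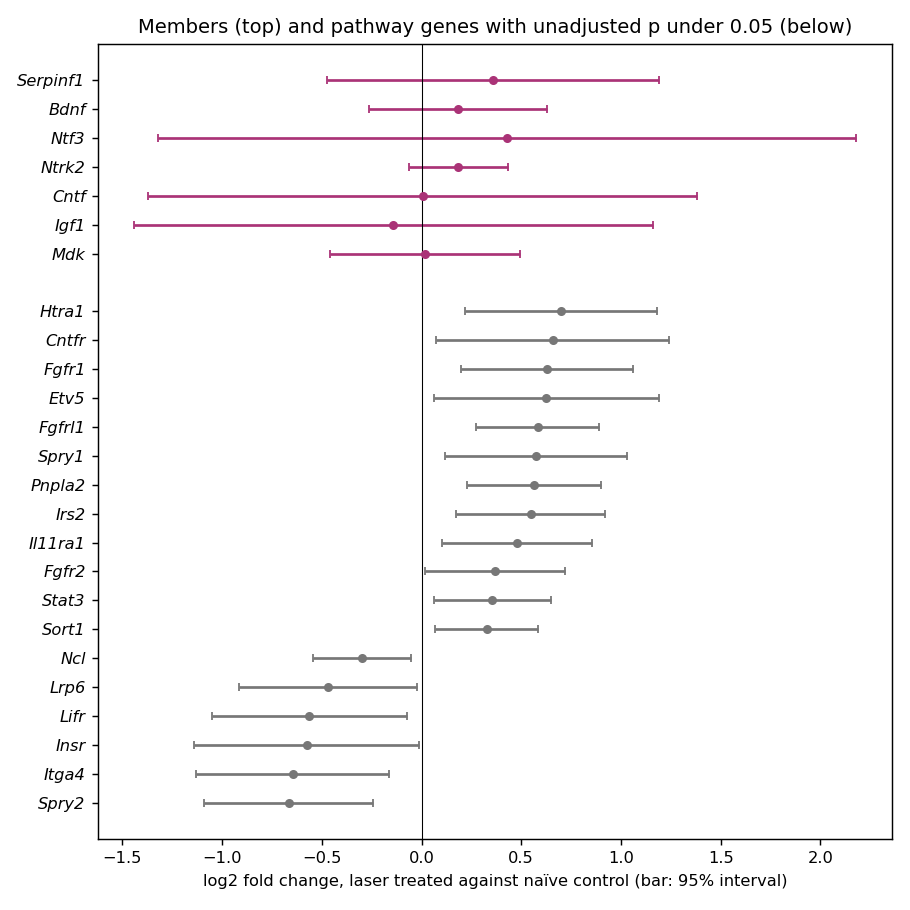
Log2 fold change between laser treated and naïve control libraries (horizontal axis) with its 95% interval from edgeR, for the 7 listed genes (top) and for the 18 genes of the wider pathway list with an unadjusted p under 0.05 (below). The interval of each of the 7 genes includes 0, with Ntrk2 from -0.07 to 0.43 as the narrowest and Ntf3 from -1.32 to 2.18 as the widest; none of the 18 genes passed the adjustment over all genes.

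To set the genes beside each other, CPM were divided by the length of annotated exon in kilobases. On this scale Mdk was the highest, at 58.1 ± 16.7 CPM per kilobase (SD, n = 11 libraries), followed by Ntrk2 at 12.0 ± 1.55, Serpinf1 at 9.57 ± 4.27 and Bdnf at 4.92 ± 1.13 CPM per kilobase. Ntf3, Igf1 and Cntf were the lowest, at 1.18 ± 1.08, 1.05 ± 0.815 and 0.843 ± 0.194 CPM per kilobase. Mdk exceeded Ntrk2 in 11 of 11 libraries with ranges that did not overlap (exact two-sided sign-flip permutation test of the paired log2 differences, p = 0.000977, the smallest it can give, adjusted p = 0.00293 over 6 neighbouring pairs). Bdnf exceeded Ntf3 in 11 of 11 libraries (exact permutation test, p = 0.000977, adjusted p = 0.00293), although their ranges over libraries overlapped. Serpinf1 exceeded Bdnf in 9 of 11 libraries (exact permutation test, p = 0.0195, adjusted p = 0.0391). On this scale Ntrk2 and Serpinf1 did not differ beyond their spread (higher in 6 of 11 libraries, exact permutation test, adjusted p = 0.101), nor did Ntf3 and Igf1 (adjusted p = 0.97) or Igf1 and Cntf (adjusted p = 0.97).

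Per kilobase of the longest transcript, in place of all annotated exon, 5 of 7 ranks were the same, with Mdk at 51.6 to 115 and Ntrk2 at 21.4 to 32.5 CPM per kilobase over 11 libraries, and Igf1 came before Ntf3. By the TPM of the assembled transcripts Ntrk2 came before Mdk, at 252 ± 61.7 against 114 ± 49.2 TPM (SD, n = 11), and Cntf came before Igf1 and Ntf3. Serpinf1 at 54.3 ± 28.0 TPM and Bdnf at 27.4 ± 8.18 TPM kept the ranks below the highest pair in all 3 measures. Ntrk2 and Serpinf1 overlapped per kilobase of annotated exon but in neither other measure. Per kilobase of the longest transcript Serpinf1 was at 3.4 to 19.3 CPM, below the range of Ntrk2. In TPM Ntrk2 ranged from 128 to 329 and Serpinf1 from 11.9 to 90.0. These differences were not tested.

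**Figure D3:**
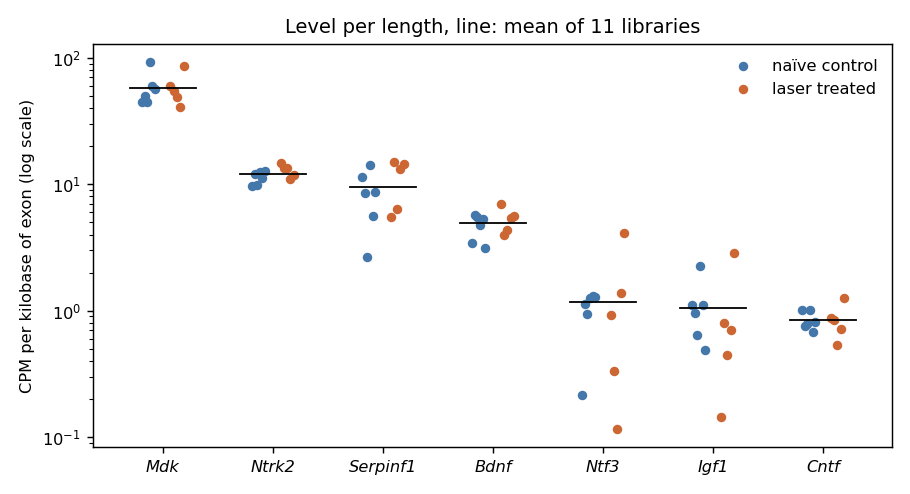
CPM per kilobase of annotated exon (vertical axis, log scale) of the 7 listed genes in order of their mean. Dots are libraries, naïve control on the left and laser treated on the right of each gene, and lines are means of 11 libraries, from 58.1 for Mdk to 0.843 for Cntf.

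The assembled transcript files hold blocks of 1 exon with their read coverage, down to a coverage of 2.5 and a length of 200 bases. The exons compared here were chosen after these files had been looked at. The exon of Ntrk2 that encodes part of the extracellular region in both receptor forms (chr13:58861250-58861555, 306 bases) was covered in 11 of 11 libraries, at a mean coverage of 323 to 541 reads per base in naïve control libraries. It was at 563, 695, 584, 521 and 486 in laser treated libraries 1 to 5, of which 3 were above all naïve control libraries. The last exon of the truncated form, which begins with the capitals shown above for the truncated transcript, was also listed in 11 of 11 libraries, at a mean coverage over its 5005 bases between 39.4 and 92.5. By contrast, an exon that encodes part of the kinase (chr13:59060228-59060462, 235 bases, exon 16 of 18 of the full-length transcript) was listed in 1 of 11 libraries, naïve control library 4, at a coverage of 3.18 against 426 for the shared exon in that library. The last exon of the full-length form (chr13:59128168-59133970, 5803 bases) was listed in 5 of 11 libraries, 2 naïve control and 3 laser treated, at a mean coverage of at most 1.3. Of the exons that set the forms apart, those of the truncated receptor held most of the coverage in both groups. An exon that is not listed may still hold reads below the limits of the assembly.

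Bdnf has several first exons, each with its own promoter, that are spliced to the same coding exon. The coding bases (chr2:109723403-109724149) were covered in 11 of 11 libraries, at 61.9 to 120 reads per base in naïve control libraries and at 122, 67.1, 79.2, 113 and 122 in laser treated libraries 1 to 5. The first exon of Bdnf-205 (chr2:109693563-109693909) was likewise listed in 11 of 11 libraries. Its coverage was between 8.72 and 29.6 in naïve control libraries and at 26.5, 23.1, 30.6, 27.1 and 31.3 in laser treated libraries, and 5 of 6 naïve control libraries lay below all laser treated libraries. The first exon of Bdnf-209 (chr2:109692436-109692774) was listed in 4 of 11 libraries, naïve control libraries 4 and 5 and laser treated libraries 4 and 5, at 1.73, 4.18, 5.84 and 2.6 reads per base. The 6 other annotated first exons of at least 200 bases were listed in 0 of 11 libraries. Those of Bdnf-207, Bdnf-208 and Bdnf-210 share their start and overlap, so they are not separate sites.

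After division by the library size, the log2 coverage of the Bdnf-205 first exon was 0.76 higher in laser treated libraries (exact two-sided permutation test over 462 splits, p = 0.0455, adjusted p = 0.0866 over 5 exon measures), with differences of 0.53 within label R1 and 0.94 within label R2. Its log2 ratio to the coding bases, which does not depend on library size, was 0.55 higher (exact permutation test, p = 0.0519, adjusted p = 0.0866), with 0.55 and 0.53 within the labels. The shared extracellular exon of Ntrk2 was 0.36 higher on the log2 scale (exact permutation test, p = 0.0216, adjusted p = 0.0866), with 0.64 within label R1 and 0.12 within label R2. The last exon of the truncated form differed by 0.17 (exact permutation test, p = 0.489, adjusted p = 0.489) and the Bdnf coding bases by 0.21 (exact permutation test, p = 0.422, adjusted p = 0.489). None of the 5 measures passed the adjustment.

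**Figure D4:**
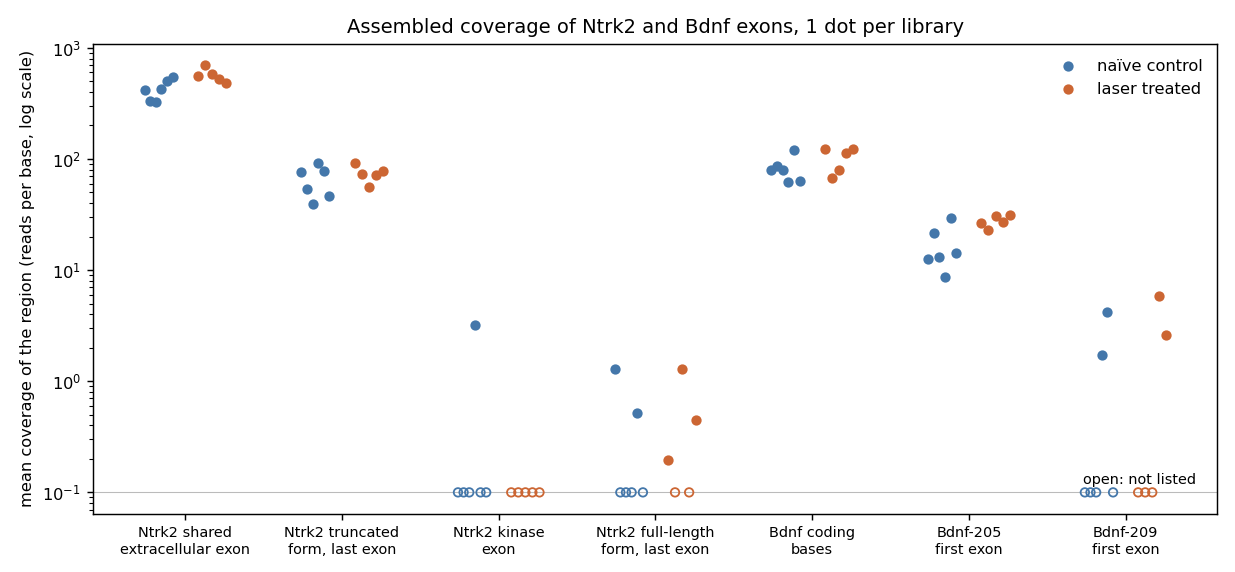
Mean coverage in reads per base (vertical axis, log scale) of Ntrk2 and Bdnf exons in the assembled transcript files, 1 dot per library, naïve control on the left and laser treated on the right of each exon; open dots at the bottom are libraries in which the exon was not listed. The shared and truncated exons of Ntrk2 were listed in 11 of 11 libraries and the kinase exon in 1, and the Bdnf-205 first exon was listed in 11 and that of Bdnf-209 in 4.

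The promoter table of RefSeq (GRCm38.p6) holds 7 windows of 300 bases for Bdnf, of which the window at chr2:109692186-109692485 on the plus strand ends 50 bases inside the first exon of Bdnf-209. It is shown because it is the only 1 of the 7 windows with the letters TCACGTCA, a form of the cyclic AMP response element, on either strand; these are in capitals. None of the 7 windows starts from Bdnf-205. The letters occur in 145 of 32851 promoter windows of the table (0.441%), and their presence is a description of this window only.
Bdnf-209 promoter: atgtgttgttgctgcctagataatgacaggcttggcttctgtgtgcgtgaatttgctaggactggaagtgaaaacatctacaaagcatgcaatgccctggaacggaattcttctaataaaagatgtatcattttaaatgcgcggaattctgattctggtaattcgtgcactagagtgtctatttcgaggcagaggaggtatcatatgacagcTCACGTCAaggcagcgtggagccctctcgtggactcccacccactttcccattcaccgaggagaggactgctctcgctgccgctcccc

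Of the genes without a count, Lif (chr11:4257557-4272514) had no assembled block in any library. Gdnf (chr15:7810846-7837575) had blocks in 1 library, 2 in number, and none touched an exon. Fgf2 (chr3:37348346-37410108) had a block on its own strand at its last coding exon in 3 libraries, 1 naïve control and 2 laser treated, at a coverage of 3.27 to 3.64. Blocks on the opposite strand over exons of Fgf2 were present in 11 of 11 libraries at 6.48 to 33.9, where 640 exon bases are shared with the antisense gene Nudt6. A further 11 blocks with no strand touched exons of Fgf2 in 7 libraries, at 2.99 to 43.9, and could not be assigned to either gene.

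The levels of Igf1 and Serpinf1 were set beside the cell type markers of the same libraries. These relations were chosen after the data had been looked at and were computed for 7 genes and 10 marker lists, 70 in all. The melanocyte markers (6 of 6 listed, such as Dct and Mlana) are in part also pigment genes of the RPE. They summed to 2560 CPM in naïve control library 4 and 2740 CPM in laser treated library 5, against at most 1430 CPM in the other naïve control and 1350 CPM in the other laser treated libraries. These are the 2 libraries in which Igf1 was highest. Since they stand apart, the relation is given over the other 9 libraries, where Pearson's r between log2 Igf1 and the log2 marker sum was 0.842 (permutation p = 0.00317, adjusted p = 0.222 over 70 relations) and Spearman's rho was 0.75.

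Log2 Serpinf1 was related to the summed fibroblast markers (6 of 6 listed, such as Dcn and Lum) with Pearson's r = 0.859 over 11 libraries (permutation p = 0.00073, adjusted p = 0.0255) and Spearman's rho = 0.791 (permutation p = 0.00531, adjusted p = 0.124). Without the 2 libraries farthest from the median of the marker sum r was 0.798 (permutation p = 0.0146, adjusted p = 0.341), which no longer passed the adjustment, and within the 6 libraries of label R2 it was 0.897, with no value for label R1. Serpinf1 also had Pearson's r of 0.747 with endothelium, 0.689 with macrophage, 0.631 with melanocyte and 0.619 with pericyte and smooth muscle markers, none of which passed the adjustment (permutation, adjusted p = 0.111, 0.206, 0.241 and 0.241). Within label R2 these were 0.415, 0.363, 0.647 and 0.935. For Schwann cell markers r was 0.367 over 11 libraries and 0.831 within label R2. It was 0.811 without the 2 farthest libraries (permutation p = 0.00784, adjusted p = 0.274). High values in the smaller sets were thus not particular to fibroblasts. The marker sums themselves did not separate the groups, ranging from 86.3 to 473 CPM in naïve control and from 96.9 to 425 CPM in laser treated libraries for fibroblasts and from 955 to 2560 CPM and from 857 to 2740 CPM for melanocytes. The part of either cell type in the level of these genes was not tested.

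**Figure D5:**
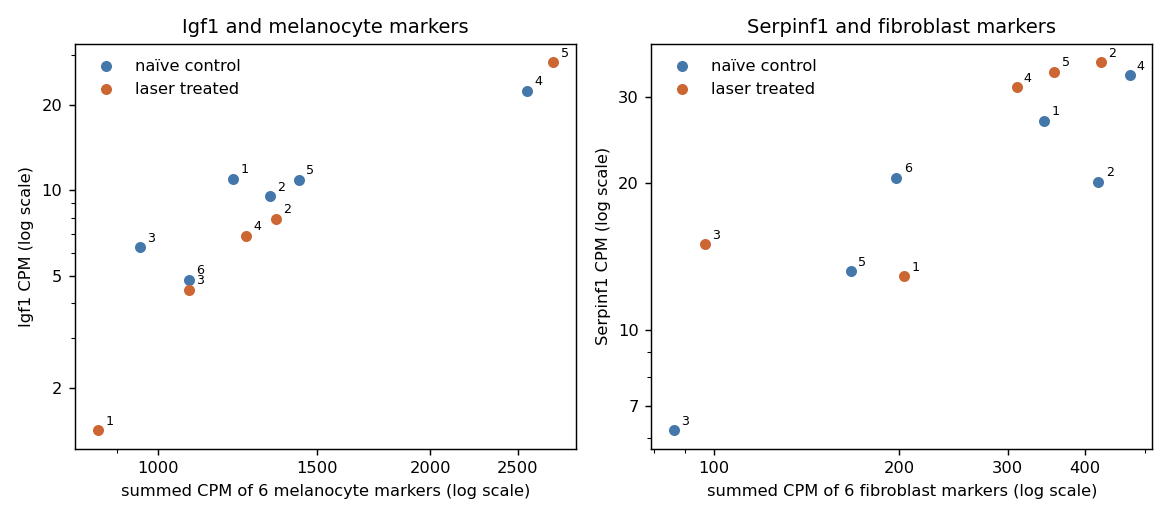
CPM of Igf1 against the summed CPM of 6 melanocyte markers (left) and CPM of Serpinf1 against the summed CPM of 6 fibroblast markers (right), all axes on a log scale, 1 dot per library with its number. Naïve control library 4 and laser treated library 5 lie apart at 2560 and 2740 CPM of melanocyte markers and hold the highest Igf1, and Pearson's r between log2 Serpinf1 and the log2 fibroblast sum is 0.859 over 11 libraries and 0.798 without 2 of them.

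Among the 11714 genes with a mean of at least 100 counts, the genes whose log2 CPM over the 11 libraries was most like that of Serpinf1 were Lyz2 (Pearson's r = 0.947) and Dusp1 (r = 0.916). Those most like Bdnf were Smad4 (r = 0.874) and Adam1a (r = 0.815), and those most like Ntrk2 were Dusp6 (r = 0.939) and Psmc3 (r = 0.938). For Igf1 they were Dct (r = 0.900), itself among the melanocyte markers summed above, and Magi1 (r = 0.875). For Mdk they were Mgll (r = 0.950) and Palmd (r = 0.921). These are the highest of many values over libraries that share their depth and composition, and are given as descriptions with no test.

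The wider list of 105 ligands, receptors, binding proteins and signalling genes of 8 families had 86 genes in the count table, the 7 above included. At an adjusted p under 0.05 edgeR called 0 of 86 genes, with the smallest adjusted p at 0.172. An unadjusted p under 0.05 was found for 18 of 86 genes (20.9%, against 15.9% of all genes), 12 of them higher (8.24% of all genes) and 6 lower (7.68% of all genes) in laser treated libraries. After removal of the GC trend these were 7 and 1, or 8 in all (7.33% of all genes), and within label R2 they were 4 in all (6.29% of all genes). The median log2 fold change of the 86 genes was 0.08. By role, 0 of 22 ligands, 11 of 36 receptors (30.6%) and 3 of 11 targets or inhibitors (27.3%) had an unadjusted p under 0.05. So did 2 of 7 signalling genes, 1 of 3 co-receptors and 1 of 7 binding proteins, against 15.9% of all genes. These counts by role are from the main comparison, without removal of the GC trend, and differences between roles were not tested.

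In the CNTF and LIF family 4 of 19 genes (21.1%, against 15.9% of all genes) had an unadjusted p under 0.05, 3 of them receptors and the other Stat3. Cntfr, the receptor subunit that binds CNTF, was at 9.88 ± 1.83 CPM in naïve control (SD, n = 6) against 15.6 ± 5.93 CPM in laser treated libraries (SD, n = 5), and its log2 fold change was 0.66 (standard error 0.27, edgeR adjusted p = 0.264). Lifr, the signalling subunit shared by LIF and CNTF, was at 44.2 ± 14.7 and 29.9 ± 5.17 CPM, a log2 fold change of -0.56 (standard error 0.23, edgeR adjusted p = 0.251). Il11ra1, the interleukin 11 receptor, and Stat3, the transcription factor of this pathway, had log2 fold changes of 0.48 and 0.36 (edgeR adjusted p = 0.220 and 0.239). After removal of the GC trend Cntfr was at 0.43 and Lifr at -0.28 (unadjusted p = 0.152 and 0.218 in edgeR), and Il11ra1 and Stat3 were also above an unadjusted p of 0.05. Values of the receptor subunits lay in both directions, and Ctf1, the ligand cardiotrophin-1, had the highest level per length of the family at 48.9 CPM per kilobase.

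The FGF family had 6 of 17 genes (35.3%, against 15.9% of all genes) at an unadjusted p under 0.05 and a median log2 fold change of 0.26. The receptors Fgfr1 and Fgfr2 and the decoy-like receptor Fgfrl1 had log2 fold changes of 0.63, 0.37 and 0.58. Fgfrl1 was at 60.7 ± 12.0 CPM in naïve control (SD, n = 6) against 90.8 ± 8.65 CPM in laser treated libraries (SD, n = 5), with an adjusted p of 0.172 in edgeR and of 0.0193 in DESeq2. Of all genes to which DESeq2 gave an adjusted p, 6.68% were under 0.05. Of the feedback inhibitors and targets of FGF signalling, Spry1 and Etv5 had log2 fold changes of 0.57 and 0.63, whereas Spry2 had -0.66, with an adjusted p of 0.177 in edgeR and of 0.0427 in DESeq2. Dusp6, a phosphatase that ERK signalling induces, was the highest of the family per length at 158 CPM per kilobase and had a log2 fold change of 0.34 (edgeR adjusted p = 0.480). After removal of the GC trend Fgfr2, Spry1 and Etv5 were above an unadjusted p of 0.05 (0.0625, 0.0993 and 0.0695 in edgeR), and Fgfrl1 was at 0.36 with an adjusted p of 0.674. Within label R2 the log2 fold change was 0.20 for Fgfr1, -0.02 for Fgfr2 and 0.18 for Spry1.

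The IGF family had 3 of 14 genes (21.4%, against 15.9% of all genes) at an unadjusted p under 0.05. Htra1, a protease that cleaves IGF binding proteins, had a log2 fold change of 0.70, the adaptor Irs2 of 0.55 and the insulin receptor Insr of -0.57 (edgeR adjusted p = 0.189, 0.185 and 0.305). With the GC trend removed Htra1 was at 0.494, Irs2 at 0.365 and Insr at -0.424 (unadjusted p = 0.0338, 0.0386 and 0.151 in edgeR). Igf1r, the receptor for IGF1, was at 45.5 ± 8.46 CPM (SD, n = 6) against 42.6 ± 4.28 CPM (SD, n = 5), with an adjusted p of 0.846 in edgeR. Igfbp7, a binding protein, was the highest of the family at 264 CPM per kilobase and had an adjusted p of 0.727 in edgeR.

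Of the receptors of PEDF, Pnpla2, a lipase that binds it, was at 42.5 ± 7.32 CPM in naïve control (SD, n = 6) against 62.9 ± 9.57 CPM in laser treated libraries (SD, n = 5). Its log2 fold change was 0.57 (standard error 0.16), with an adjusted p of 0.174 in edgeR. In DESeq2 the adjusted p was 0.036, and 6.68% of all genes with such a value were under 0.05. After removal of the GC trend the log2 fold change of Pnpla2 was 0.36, with an adjusted p of 0.674 in edgeR. Lrp6 had a log2 fold change of -0.47 (edgeR adjusted p = 0.292), which was -0.30 after removal of the GC trend and 0.02 within label R2, and Rpsa, the laminin receptor and the highest of the family per length at 20.0 CPM per kilobase, of 0.04 (edgeR adjusted p = 0.936).

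In the neurotrophin family 1 of 10 genes (10.0%, against 15.9% of all genes) had an unadjusted p under 0.05. This was Sort1, or sortilin, which binds proneurotrophins and was the highest of its family at 13.1 CPM per kilobase, with 89.0 ± 10.6 CPM (SD, n = 6) against 112 ± 12.9 CPM (SD, n = 5) and a log2 fold change of 0.33 (edgeR adjusted p = 0.225). With the GC trend removed the log2 fold change of Sort1 was 0.302 (unadjusted p = 0.0517 in edgeR). Ntrk3 (TrkC), the receptor for neurotrophin-3, was sparse, at 1.95 ± 1.59 CPM (SD, n = 6) in naïve control libraries. Of the 13 genes of the midkine family 2 (15.4%, against 15.9% of all genes) had an unadjusted p under 0.05. These were the receptors Itga4 and Ncl (nucleolin), with log2 fold changes of -0.64 and -0.30 (edgeR adjusted p = 0.210 and 0.235). After removal of the GC trend the log2 fold changes were -0.28 (unadjusted p = 0.252 in edgeR) and 0.00238. Itga4 was the only 1 of the 86 genes whose groups did not overlap, at 11.9 to 21.4 CPM in naïve control and 8.20 to 11.8 CPM in laser treated libraries, against 2.26% of all genes. Sdc2, a heparan sulfate proteoglycan that binds midkine, was the highest of that family at 95.1 CPM per kilobase (edgeR adjusted p = 0.505). Neither the 7 genes of the GDNF family, where Ncam1 was the highest at 8.26 CPM per kilobase, nor the 2 genes Manf and Cdnf held a gene at an unadjusted p under 0.05; Manf was at 17.4 CPM per kilobase.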

How the data were processed

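RNA of 11 mouse RPE/choroidal samples was analysed. Per the processing notes of the submitters, tools included STAR 2.5.3a, featureCounts 1.5.3, StringTie 1.3.3 and edgeR 3.22.3 on mm10/GRCm38. The authors deposited raw counts per gene without normalization, and whether counting used strand is not given in the sources used here. The authors' own fold changes, p-values and average abundances in that table were not used. The authors also deposited assembled transcripts with coverage and TPM.

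Counts were compared with edgeR 4.0.16 (R 4.3.3), using TMM scaling, filterByExpr (which kept 14602 genes), robust quasi-likelihood fits and p-values adjusted over all genes by the Benjamini-Hochberg method. Total counts per library and the standard errors in the report give the precision. Exact permutation tests used all 462 splits into 6 and 5, and correlations 100000 resamples. Exons came from GENCODE M21 (97.6% of genes matched), and mean coverage of an exon is the sum over blocks of coverage times overlap, divided by its length. In simulated data with 200 genes changed 4-fold, edgeR called 84.5% of them, and 4.52% of its calls were unchanged genes. The changed genes were drawn from those with a mean of at least 100 counts, which leaves out Cntf and Ntf3. Smaller changes, such as those fitted here, were not simulated, so this share does not give the power to find them.

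The genes, the pathway and marker lists and the tests were chosen with earlier results of these data known. Genes named are the 10 genes of the group, the highest gene per length of each family, list genes with an unadjusted p under 0.05 and the 2 genes most like each listed gene with at least 100 counts; Igf1r, Ntrk3 and Cdnf, outside that rule, were named after their values were seen. Alternatives were DESeq2 1.42.0, upper quartile scaling, other count filters, limma 3.58.1 (voom, and log2 TPM with pseudocounts of 1 and 0.1), GC or length trends removed, a replicate block, the label R1 or R2, and each library left out. The exon coverage and marker relations were added after the data had been seen.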

Additional observations from a re-analysis of the deposited data

Results flagged for a closer look

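A library stood far from the others of its group (Dixon's test at the 95% level) in 9 of 78 groups of values looked at, where chance gives about 5%. Of the factors, Ntf3 was at 0.368 CPM in naïve control library 1, against 1.61 to 2.22 in the other 5. Igf1 was at 22.5 CPM in naïve control library 4, against 4.84 to 11.0, and at 28.3 CPM in laser treated library 5, against 1.42 to 7.94. Mdk was at 122 CPM in naïve control library 4, against 58.7 to 78.9.

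Of the wider list, Cntfr was at 6.32 CPM in naïve control library 6, against 9.88 to 11.2, Spry1 at 185 CPM in laser treated library 2, against 110 to 128, and Htra1 at 57.6 CPM in naïve control library 4, against 24.2 to 33.4. The melanocyte markers summed to 2560 CPM in naïve control library 4, against 955 to 1430, and to 2740 CPM in laser treated library 5, against 857 to 1350.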

How the results depend on the processing

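Under every alternative run, 0 of the 7 factors and receptors passed an adjusted p of 0.05, though DESeq2 gave none to Ntf3, Cntf and Igf1. Serpinf1, Bdnf and Ntrk2 kept a log2 fold change above 0 in 27 of 27 alternatives, from 0.17 to 0.75, from 0.06 to 0.52 and from 0.02 to 0.44. The fits with no count filter and without robust estimation gave the same log2 fold changes as the main comparison. Fits with a library left out shared most of their libraries with it, so the alternatives are not independent. For Ntf3, Cntf, Igf1 and Mdk, none of which was called, the sign depended on the setting. Ntf3 was at -0.638 with voom weights, -0.0296 by TPM with a pseudocount of 0.1, -0.258 within label R1 and -0.229 as a plain difference of log2 CPM; at least 10 counts in every sample gave it no value. Cntf was at -0.0656 with voom weights and -0.0309 as a plain difference. Igf1 was at 0.18 with the GC trend removed and 0.082 within label R2, and Mdk at -0.191 and -0.203. Without each library in turn the log2 fold changes spanned -0.57 to 0.72 for Ntf3, -0.18 to 0.13 for Cntf, -1.06 to 0.22 for Igf1 and -0.17 to 0.21 for Mdk.

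In the wider list, Ncl was at 0.00238 with the GC trend removed and at 0.0821 and 0.0825 by TPM with pseudocounts of 1 and 0.1, and within label R2 Fgfr2 was at -0.0163 and Lrp6 at 0.0211. At an unadjusted p under 0.05 the list held 12 higher and 6 lower genes; with the GC trend removed 7 and 1, the higher ones including 1 of the 7 factors and receptors (Bdnf), against 0 in the main comparison; with the length trend removed 13 and 1; and within label R2 2 and 2. Without each library in turn the numbers were 8 to 12 higher and 3 to 9 lower, with 8 higher without laser treated library 2, 3 lower without naïve control library 3 and 9 lower without laser treated library 4. DESeq2 called 3 genes of the list at an adjusted p under 0.05, against 0 in edgeR. Only some of the 86 list genes had an adjusted p in DESeq2, so the 3 calls are not a share of 86. Over all genes with an adjusted p in DESeq2 it called 502 of 7512 (6.68%), and the 3 calls are not read as a result about the list. Of the 7 ranks of level, 3 were the same in assembled TPM and 5 per kilobase of the longest transcript. Marker sums changed sign when 1 library was left out for RPE (-0.16 to 0.023), fibroblasts (-0.258 to 0.377) and melanocytes (-0.274 to 0.169). The cause of these shifts was not tested.

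The replicate numbers did not pair the samples. Correlations of deviations between same-numbered libraries ran from -0.01 to 0.28, and 2 of 5 laser treated libraries correlated best with their own number. With the replicate number as a block the list held 13 higher and 4 lower genes at an unadjusted p under 0.05, Ntf3 was at -0.0971 and Cntf at -0.044. With the block and the GC trend removed the list held 8 higher and 1 lower, Ntf3 was at -0.0358, Mdk at -0.196 and Ncl at 0.116.

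Depth limits the low genes: Cntf and Ntf3 rest on at most 45 and 235 counts in a library, and exons below the limits of the assembly are not seen.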
